A study of Mus musculus with 16 samples.

Results

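Brain endothelial cells (bECs) line the vessels of the brain, and the expression of 6 genes in them is described here: the angiomotins Amot, Amotl1 and Amotl2, and the LIM-domain proteins Ajuba, Limd1 and Wtip. The genes were chosen by symbol as these families' members, 6 of the 37003 genes in the table of counts, and every one passed the filter on low counts. The 16 libraries came from 2 genotypes, CTRL and YT-iKO, each after sham surgery or MCAo, with 4 libraries in each of the 4 groups. YT-iKO mice carried Pdgfb-iCreER-eGFP Tg/+ with Yap fl/fl and Taz fl/fl, and CTRL littermates had the same floxed alleles without the Cre transgene. Both genotypes received tamoxifen, which activates the Cre, so neither the drug nor the floxed alleles separated them. The Pdgfb promoter drives this Cre in endothelial cells, and expression of Cre and eGFP could not be told apart from the loss of YAP and TAZ. MCAo closed the middle cerebral artery for 30 minutes, and after MCAo or sham surgery the brain tissue of adult mice of both sexes was taken at 3 days. After MCAo the injured territory and the matching area of the other hemisphere were dissected, and the sources used here do not say whether a library held both. Cells were sorted as DAPI-, CD45-, CD31+, and each library was a pool of mice, so the pool is the replicate. A lower level in such a pool can mean fewer cells with the transcript or less of it per cell, which cannot be told apart.

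Angiomotins are scaffold proteins of cell junctions and the actin cytoskeleton that bind the transcriptional coactivators YAP and TAZ and hold them outside the nucleus. They also bring the Hippo kinases LATS1 and LATS2 together with YAP. Ajuba, Limd1 and Wtip form a family of adaptor proteins with LIM domains, which are paired zinc fingers that bind other proteins, and they bind the LATS kinases and limit their action on YAP and TAZ. YAP and TAZ act in the nucleus through the TEAD transcription factors, and Amotl2 and Ajuba are often listed among YAP/TAZ target genes. In endothelial cells the angiomotins are known for their part in junctions, cell shape and migration.

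On GRCm38, Amotl2 lies on chromosome 9 (102716672 to 102733418, plus strand), as do Amotl1 (14541966 to 14645056, minus strand) and Limd1 (123478706 to 123521552, plus strand). Amot lies on the X chromosome (145446425 to 145505181, minus strand), Ajuba on chromosome 14 (54567472 to 54577558, minus strand) and Wtip on chromosome 7 (34109543 to 34133268, minus strand). All 6 are protein-coding genes, and no exon of theirs overlaps an exon of another annotated gene. The 250 bases before the RefSeq transcription start (GRCm38.p6) are shown for Amotl2, Ajuba and Wtip, the members with the most negative log2 fold changes between genotypes, of which only Amotl2 passed the threshold of the main test. CATTCC, a motif bound by TEAD factors, and its complement GGAATG are in capitals, and each sequence is read in the direction of its gene. Ajuba and Wtip were read from the minus strand. The regions are chr9:102717554-102717803 for Amotl2, chr14:54577662-54577911 for Ajuba and chr7:34133269-34133518 for Wtip.
Amotl2: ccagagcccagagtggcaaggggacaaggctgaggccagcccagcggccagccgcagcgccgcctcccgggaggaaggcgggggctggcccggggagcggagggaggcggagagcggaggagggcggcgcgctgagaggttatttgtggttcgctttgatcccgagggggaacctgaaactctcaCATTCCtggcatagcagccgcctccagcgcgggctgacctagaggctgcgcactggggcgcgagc
Ajuba: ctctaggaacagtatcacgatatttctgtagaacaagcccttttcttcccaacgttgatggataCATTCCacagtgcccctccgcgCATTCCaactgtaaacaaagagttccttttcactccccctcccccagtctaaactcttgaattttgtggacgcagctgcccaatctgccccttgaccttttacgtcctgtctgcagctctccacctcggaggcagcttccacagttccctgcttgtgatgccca
Wtip: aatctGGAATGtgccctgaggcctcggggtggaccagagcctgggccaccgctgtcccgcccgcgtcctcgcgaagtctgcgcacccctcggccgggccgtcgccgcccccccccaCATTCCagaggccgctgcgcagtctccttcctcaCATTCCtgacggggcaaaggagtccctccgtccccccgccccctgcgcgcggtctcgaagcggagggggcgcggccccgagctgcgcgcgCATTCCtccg
The Amotl2 sequence held 1 match, from -65 to -60 relative to the start. Ajuba held 2, from -186 to -181 and from -164 to -159, and Wtip held 4, the nearest from -10 to -5. The windows of Amot and Amotl1 held 0 matches. Of 32851 RefSeq windows of this kind, each with 250 bases before and 50 after a start, 14.7% held at least 1 match on either strand, 1.36% at least 2 and 0.131% at least 3. The starts used for Amotl2, Amot and Amotl1 lie inside the annotated genes rather than at their outermost ends, so other starts of these genes were not searched, and Limd1 was not searched. A match describes these letters only, since binding was not measured.

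Libraries held 11418262 to 23074547 counts. Endothelial markers were high in every library (summed level of the 10 markers from 9164 to 19391 CPM, counts normalised to library size), with pericyte markers next (8 markers, 496 to 1535 CPM). The deleted genes followed the labels. Yap1 had 112 CPM ± 0.511 (SD, n = 4) in CTRL sham and 49.3 ± 9.70 in YT-iKO sham, and 106 ± 26.8 in CTRL MCAo and 47.2 ± 11.6 in YT-iKO MCAo. Wwtr1, which encodes TAZ, had 265 CPM ± 9.66 in CTRL sham, 72.1 ± 20.9 in YT-iKO sham, 329 ± 96.8 in CTRL MCAo and 89.1 ± 32.9 in YT-iKO MCAo (n = 4 each). Counts are summed over the whole gene, so transcripts that lack the floxed exon can still be counted. Libraries also differed in the density of background reads, measured on 1466 olfactory, vomeronasal and taste receptor genes, from 0.0413 CPM per kilobase of exon in YT-iKO MCAo replicate 4 to 0.421 in YT-iKO sham replicate 3. Whether this density holds for other genes was not tested, and background shares and subtracted levels assume that it does. This density overlapped between groups (exact permutation p of 0.457 or more in the 4 comparisons of groups). Main CPM values use scaling factors from all tested genes (0.743 to 1.40 per library), and where it changes the reading a second scale is given, with factors from the 9132 genes of at least 10 CPM on average (0.939 to 1.04). On the second scale the median gene of the sham comparison of genotypes moved from 0.11 to 0.30 (log2).

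Per kilobase of exon, the 6 genes kept 1 order in CTRL bECs, and Amotl2 stood at its head. In CTRL sham the levels were 37.8 CPM per kilobase ± 2.91 for Amotl2, 28.04 ± 0.753 for Amotl1, 17.0 ± 0.123 for Amot, 7.21 ± 0.775 for Limd1, 4.05 ± 0.362 for Wtip and 1.98 ± 0.228 for Ajuba (SD, n = 4). No neighbours in this order overlapped in CTRL sham. In CTRL MCAo the order was the same, but the ranges of Amotl2 and Amotl1 overlapped, as did those of Limd1 (5.40 to 10.4) and Wtip (3.56 to 6.40), with the former of each pair higher in 4 of 4 libraries. In YT-iKO Amotl2 stood behind Amotl1 and Amot. In YT-iKO sham Amotl1 had 25.0 CPM per kilobase ± 4.49, Amot 14.8 ± 3.88, Amotl2 9.32 ± 1.28, Limd1 6.61 ± 1.28, Wtip 2.69 ± 0.655 and Ajuba 0.887 ± 0.243. Each of these genes exceeded the next in 4 of 4 libraries, although the ranges of neighbours among the upper 4 overlapped. Amotl1 (18.6 to 28.9) lay wholly above Amotl2 (7.80 to 10.5). In YT-iKO MCAo Amotl2 (8.32 ± 2.64) and Limd1 (7.27 ± 2.53) could no longer be ordered, since Amotl2 was the higher of them in 3 of 4 libraries.

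**Figure D1:**
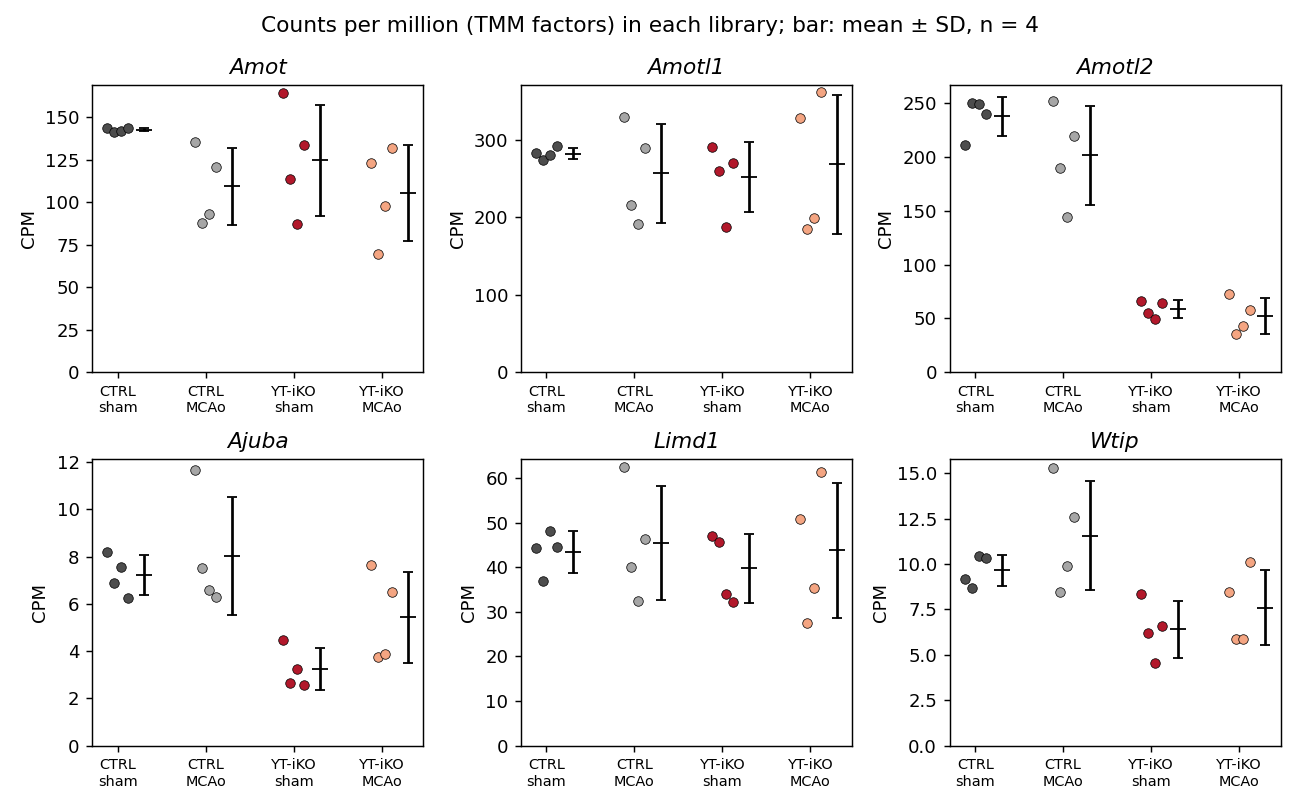
Normalised counts (CPM, vertical axis) of the 6 genes in each of the 16 libraries, by group, with 1 point per library and the mean ± SD (n = 4) beside the points. The YT-iKO points of Amotl2 lie at 35.5 to 72.8 CPM, below all CTRL points at 145 to 252 CPM, while those of Amotl1 and Limd1 overlap with CTRL.

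Amotl2, the angiomotin with the highest level per kilobase in CTRL bECs, fell in YT-iKO after either operation. In CTRL sham its 4 libraries had 211, 250, 249.4 and 240 CPM. In YT-iKO sham they had 66.1, 55.0, 49.0 and 64.3 CPM. All 4 YT-iKO libraries lay far below the lowest CTRL library, with a gap wider than either group's range. The log2 fold change was -2.02 (SE 0.24, edgeR adjusted p = 2.73e-04), and 1 of 6 members was called in this comparison, against 0.0965% of the 31085 genes tested. In CTRL MCAo Amotl2 had 252, 190, 145 and 220 CPM, and in YT-iKO MCAo 72.8, 35.5, 42.9 and 58.1 CPM. The groups were again separate, although both were more spread than after sham. The log2 fold change after MCAo was -1.95 (SE 0.24, edgeR adjusted p = 7.49e-04), where 0.0708% of genes were called. Averaged over both operations it was -1.98 (95% interval -2.33 to -1.63, edgeR adjusted p = 1.13e-06, percent of genes called 0.28). Under the 10 or 11 alternative analyses of each comparison and with each of the 16 libraries left out, Amotl2 was called every time, with log2 fold changes from -2.23 to -1.82.

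The other angiomotins did not share this difference. Amotl1, which is close to Amotl2 in sequence and role, had 283, 274, 281 and 292 CPM in CTRL sham and 291, 259, 187 and 270 CPM in YT-iKO sham. In CTRL MCAo it had 329, 216, 192 and 290 CPM, and in YT-iKO MCAo 328, 185, 199 and 362 CPM. The groups overlapped in both comparisons of genotypes, with a mean log2 fold change of -0.05 (95% interval -0.41 to 0.31, edgeR adjusted p = 1.00). This sign turned on the second scale (0.01), on which the 16 libraries lay between 241 and 288 CPM. Amot had 144, 142, 142 and 144 CPM in CTRL sham, 164, 114, 86.9 and 133 CPM in YT-iKO sham, 136, 87.8, 93.2 and 121 CPM in CTRL MCAo and 123, 69.4, 97.6 and 132 CPM in YT-iKO MCAo. Its genotypes overlapped too, with a mean log2 fold change of -0.12 (95% interval -0.47 to 0.22, edgeR adjusted p = 1.00). Amot is X-linked and the pools differed in sex, with Xist from 0.752 to 1431 CPM per library; with the Xist level as a covariate no call of any member changed.

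Shares within a library do not depend on its scaling factor, and they changed in the same way. Amotl2 made up 45.6% ± 2.17 of the per-kilobase level of the 3 angiomotins in CTRL sham and 45.4% ± 2.24 in CTRL MCAo, against 19.1% ± 1.53 for YT-iKO sham and 17.6% ± 1.86 for YT-iKO MCAo (SD, n = 4). The lowest CTRL library (42.6%) and the highest YT-iKO library (21.2%) were far apart. The share of Amotl1 was 33.9% ± 1.45 in CTRL sham and 51.0% ± 1.95 in YT-iKO sham, so that it was the largest of the 3 in YT-iKO. On the log2 scale the ratio of Amotl2 to Amotl1 was lower in YT-iKO by a mean of -1.93, and that of Amotl2 to Amot by -1.85 (exact permutation p = 0.000408 each, the smallest that 4900 assignments can give; adjusted over 36 tests 0.00735). The ratio of Amot to Amotl1 differed by -0.08 between genotypes (exact permutation p = 0.275).

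**Figure D2:**
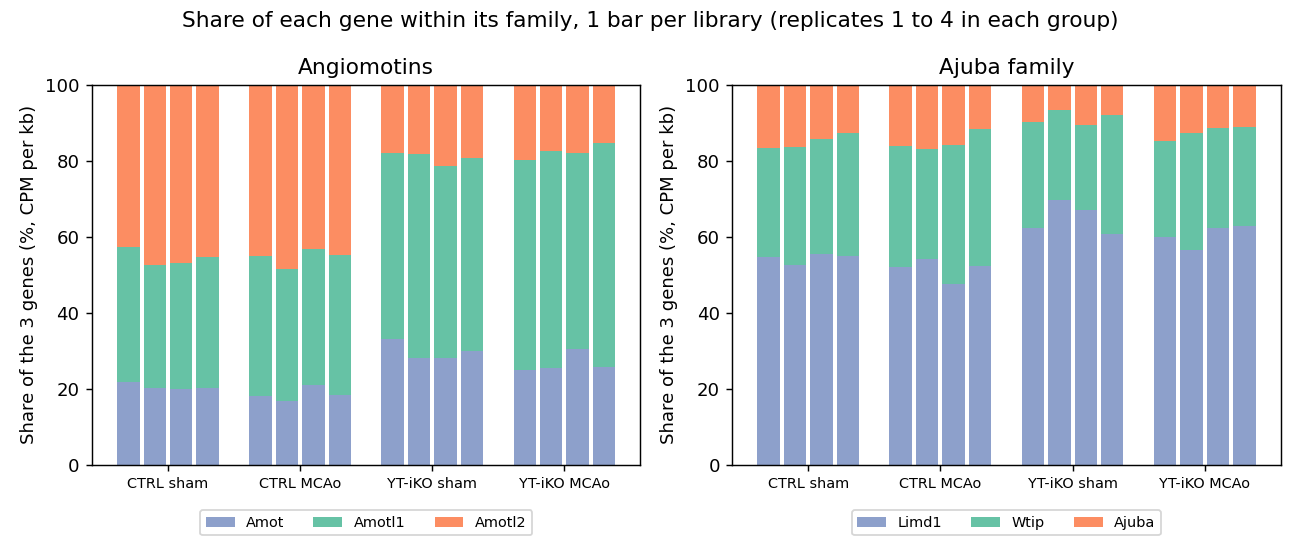
Share (vertical axis, %) of each gene in the summed CPM per kilobase of its family, with 1 stacked bar per library and 4 bars per group. Amotl2 takes 42.6% to 48.6% of the angiomotins in CTRL and 15.2% to 21.2% in YT-iKO, and Ajuba takes 6.63% to 10.5% of its family in YT-iKO sham against 12.7% to 16.7% in CTRL sham.

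Ajuba, an adaptor that joins LATS kinases to junctions under tension, was the least abundant member and had the largest difference between genotypes after that of Amotl2 in sham libraries and in the mean. Its 4 CTRL sham libraries had 8.17, 6.89, 7.54 and 6.24 CPM (96 to 128 counts). In YT-iKO sham they had 4.48, 2.64, 3.24 and 2.57 CPM (39 to 93 counts). Every YT-iKO sham library was below every CTRL sham library, as were those of Amotl2 and Wtip, so 3 of 6 members were separate and lower, against 2.22% of genes. The log2 fold change of Ajuba was -1.15 (SE 0.29), which did not pass the threshold over all genes (edgeR adjusted p = 0.440), and the exact permutation p of its own values was 0.0286, the smallest that 4 against 4 allows. In CTRL MCAo it had 11.7, 7.51, 6.58 and 6.29 CPM, and in YT-iKO MCAo 7.62, 3.76, 3.89 and 6.48 CPM. These groups overlapped, with a log2 fold change of -0.55 (SE 0.28, edgeR adjusted p = 1.00), which was -0.85 without YT-iKO MCAo replicate 1 and -0.85 with limma-voom. Over both operations it was -0.85 (95% interval -1.27 to -0.43, edgeR adjusted p = 0.115), and the exact permutation p was 0.00327. Without 1 library this mean was called in 5 of 16 cases, namely without replicate 1 or 4 of YT-iKO MCAo (edgeR adjusted p = 0.0187 and 0.0251), replicate 1 of YT-iKO sham (0.0335), replicate 3 of CTRL MCAo (0.0697) or replicate 4 of CTRL sham (0.0807). In these 5 fits 103 of 32886 to 171 of 32939 genes were called, against 87 of 31085 with all libraries. The call of Ajuba depended on the analysis. With the receptor-gene density as a covariate Ajuba was called after sham (-1.09, edgeR adjusted p = 0.0125, percent of genes called 0.447) and over both operations (-0.87, edgeR adjusted p = 6.20e-04, percent of genes called 2.37), and with DESeq2 likewise (adjusted p = 0.0308 and 0.00366; percent of genes called 0.42 and 1.33). At that density, background reads would make up 2.32% to 47.4% of the value of Ajuba, the highest share being in YT-iKO sham replicate 3. Summed astrocyte markers were also lower in YT-iKO sham (61.7 to 81.2 CPM for 6 markers) than in CTRL sham (97.6 to 112 CPM). By gene 4 of these markers were lower and 2 higher. Their median log2 fold change was -0.17, against -0.13 for genes of at least 10 CPM. Gja1 had the highest level among them (median 53.0 CPM over all libraries). The part of these markers in the sham differences was not tested.

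Wtip, a member of the same family first described as a partner of WT1 in kidney podocytes, had a log2 fold change between genotypes nearer to 0 than that of Ajuba after sham, while after MCAo the order of these genes changed with the libraries used. In CTRL sham it had 9.19, 8.66, 10.4 and 10.3 CPM, and in YT-iKO sham 8.34, 6.18, 4.54 and 6.59 CPM. The groups were separate by a narrow margin (log2 fold change -0.59, SE 0.24, edgeR adjusted p = 0.990; exact permutation p = 0.0286). In CTRL MCAo it had 15.3, 8.47, 9.90 and 12.6 CPM, and in YT-iKO MCAo 8.48, 5.89, 5.89 and 10.1 CPM. These overlapped (log2 fold change -0.61, SE 0.24, edgeR adjusted p = 1.00), so that after MCAo only Amotl2 among the 6 was separate and lower, against 0.415% of genes. On the second scale Wtip had 11.8, 9.88, 12.5 and 11.4 CPM in CTRL MCAo and 7.45, 7.94, 7.26 and 7.40 CPM in YT-iKO MCAo, and was separate as well (exact permutation p = 0.0286, percent of genes lower 1.74). Over both operations its log2 fold change was -0.60 (95% interval -0.95 to -0.24, edgeR adjusted p = 0.398, exact permutation p = 0.00286). It was called without YT-iKO MCAo replicate 4 (edgeR adjusted p = 0.0682), a fit with 171 of 32939 genes called. With the receptor-gene density as a covariate it was called after MCAo (-0.72, edgeR adjusted p = 0.0258, percent of genes called 0.75) and over both operations (-0.62, edgeR adjusted p = 0.00142).

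Limd1, which also acts in hypoxia signalling and microRNA silencing, showed no difference between genotypes beyond the spread of the libraries. It had 44.2, 36.9, 48.0 and 44.4 CPM in CTRL sham and 47.1, 45.7, 34.1 and 32.2 CPM in YT-iKO sham. In CTRL MCAo it had 62.6, 40.0, 32.5 and 46.4 CPM, and in YT-iKO MCAo 50.9, 27.4, 35.4 and 61.3 CPM. The mean log2 fold change was -0.09 (95% interval -0.44 to 0.27, edgeR adjusted p = 1.00). Within libraries, the log2 ratio of Ajuba to Limd1 was lower in YT-iKO by a mean of -0.78 (exact permutation p = 0.00122, adjusted over 36 tests 0.0110) and that of Wtip to Limd1 by -0.50 (exact permutation p = 0.000816, adjusted over 36 tests 0.00980). Ajuba and Wtip did not pass a test against each other (-0.27, exact permutation p = 0.139). With the background density subtracted from each level, that ratio was -0.48 (exact permutation p = 0.0376), an alternative chosen after seeing the data.

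**Figure D3:**
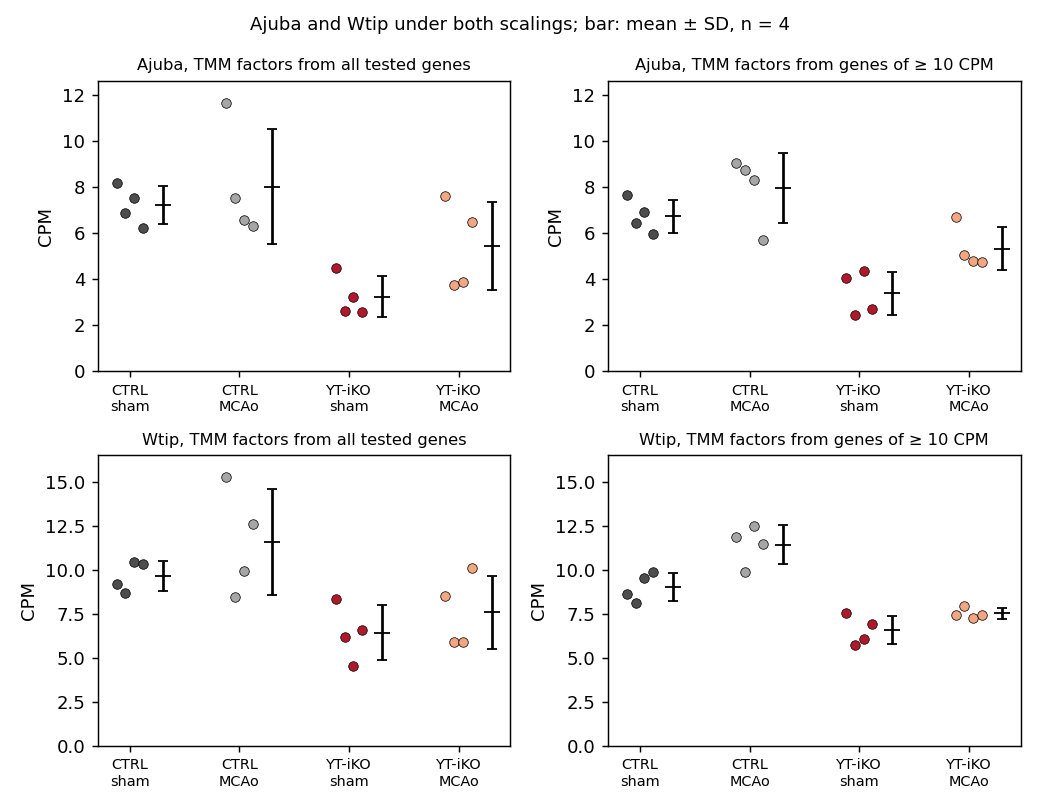
Ajuba (upper row) and Wtip (lower row) in CPM per library, with scaling factors from all tested genes on the left and from genes of at least 10 CPM on the right; points are libraries and bars the mean ± SD (n = 4). On the right the 4 Wtip values of YT-iKO MCAo narrow to 7.26 to 7.94 CPM and lie below CTRL MCAo at 9.88 to 12.5 CPM.

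The comparisons of MCAo with sham use the same libraries as those of genotypes. With edgeR, factors from all tested genes and no covariate, no member was called in CTRL or in YT-iKO, where 0.216% and 0.318% of genes were called, nor in the mean of both, where 1.23% were. Amot was the member whose CTRL libraries were separate, with every CTRL MCAo value below 141.6 CPM, the lowest of CTRL sham (1 of 6 members, against 1.9% of genes lower; exact permutation p = 0.0286). Its log2 fold change was -0.38 in CTRL (SE 0.23, edgeR adjusted p = 1.00), -0.24 in YT-iKO (SE 0.23, edgeR adjusted p = 1.00) and -0.31 as the mean of both (95% interval -0.65 to 0.03, edgeR adjusted p = 0.992). The mean was called with the receptor-gene density as a covariate (-0.35, edgeR adjusted p = 0.0488, percent of genes called 5.95) and with factors from abundant genes (-0.29, edgeR adjusted p = 0.0256, percent of genes called 5.14). With limma-voom Amot, Amotl1 and Amotl2 were called in CTRL, in YT-iKO and in the mean, among 24.2%, 18.1% and 54.7% of genes. The log2 ratio of Amot to Amotl1 within libraries was lower after MCAo by a mean of -0.26 (exact permutation p = 0.00408, adjusted over 36 tests 0.0294). Between the same CTRL groups summed fibroblast markers were higher after MCAo (26.1 to 31.5 CPM against 16.9 to 19.1 CPM for 5 markers). Summed neuron markers were lower (20.3 to 28.5 against 31.7 to 38.2 CPM for 5 markers). By gene all 5 fibroblast markers were higher, but 3 neuron markers were higher and 2 lower (median log2 fold change 0.21). Stmn2 had the highest level of the neuron markers (median 24.8 CPM over all libraries). The part of these markers was not tested.

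The log2 fold change of Ajuba after MCAo was 0.75 in YT-iKO (SE 0.29, unadjusted p = 0.0169, edgeR adjusted p = 1.00) and 0.15 in CTRL (SE 0.28, edgeR adjusted p = 1.00). Without YT-iKO MCAo replicate 1 the value in YT-iKO was 0.46, and with limma-voom it was 0.34. On the main scale YT-iKO sham and MCAo overlapped (exact permutation p = 0.0857). On the second scale YT-iKO sham had 4.04, 2.45, 4.35 and 2.704 CPM and YT-iKO MCAo 6.70, 5.07, 4.79 and 4.75 CPM, which did not overlap (exact permutation p = 0.0286, percent of genes higher 1.87). The log2 ratio of Ajuba to Limd1 was likewise higher in YT-iKO after MCAo, by 0.63 (exact permutation p = 0.0286, adjusted over 36 tests 0.0735). With the background density subtracted this difference was 0.79 and the groups overlapped (exact permutation p = 0.0571). Wtip had log2 fold changes after MCAo of 0.26 in CTRL and 0.24 in YT-iKO, and on the second scale its CTRL MCAo libraries lay above CTRL sham (8.09 to 9.86 CPM) without overlap (exact permutation p = 0.0286, percent of genes higher 4.69). Amotl2 had -0.24 in CTRL and -0.16 in YT-iKO, Amotl1 -0.14 and 0.09, and Limd1 0.06 and 0.14, and the 95% intervals of these 6 values span 0.

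The response to MCAo was not shown to differ between genotypes for any member. The interaction, the MCAo difference in YT-iKO minus that in CTRL, was largest for Ajuba (0.60, 95% interval -0.24 to 1.43, unadjusted p = 0.153), and without YT-iKO MCAo replicate 1 it was 0.30. For Amotl2 it was 0.08 (95% interval -0.60 to 0.75) and for Wtip -0.02 (95% interval -0.74 to 0.70). edgeR called 0 of 31085 genes in this comparison, with 116 at an unadjusted p under 0.05, and DESeq2 called 0. With the receptor-gene density as a covariate 1 gene was called (percent of genes called 0.00322), which was no member. Genes without any difference should reach that p in a share of 0.05, so 116 is far too few and the main test was conservative. The same held between genotypes, with 670 genes after sham and 464 after MCAo. High adjusted p-values of this test therefore do not show that a difference is absent. Its common dispersion, the modelled spread between libraries, was 0.16, and 0.035 with the density covariate.

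**Figure D4:**
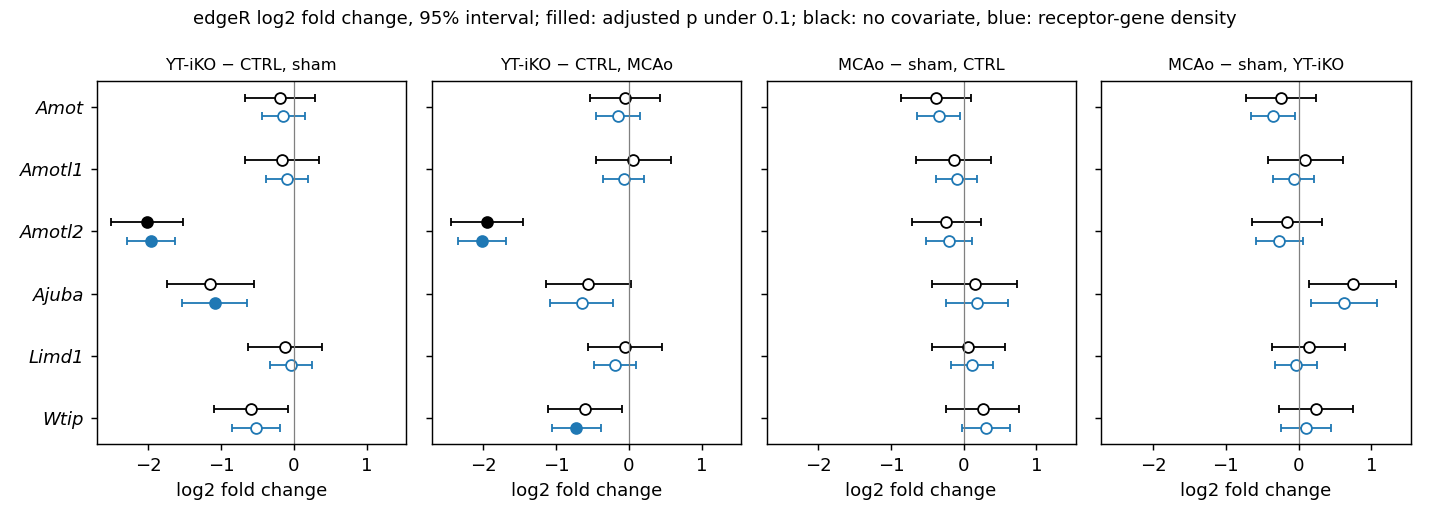
edgeR log2 fold changes (horizontal axis) of the 6 genes in the 4 comparisons of groups with 95% intervals, without a covariate in black and with the receptor-gene density as a covariate in blue; filled points have an adjusted p under 0.1. Amotl2 is filled in both comparisons of genotypes on either fit, Ajuba after sham and Wtip after MCAo with the covariate.

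Partners and neighbours of these genes in the pathway were also compared between genotypes. Where 0.28% of all genes were called in the mean, 0 calls in lists of this size are no result about the lists. Of 22 partners of the angiomotins, such as the polarity proteins Patj and Pard3, the junction scaffolds Tjp1 and Magi1 and the ubiquitin ligase Nedd4, 0 were called in either comparison of genotypes or in their mean (percent called 0.28), and 21 were lower in the mean, with a median of -0.16 against 0.09 over all genes tested. Of 17 partners of the LIM proteins, such as Ctnna1, Vcl and Lats1, 0 were called and 14 were lower in the mean (median -0.15). Of 21 Hippo kinases, regulators and TEAD factors 0 were called (median -0.09). Trip6 (-0.77, SE 0.15, edgeR adjusted p = 0.0242) was the only call among 4 LIM proteins of the zyxin family, a related group of adhesion adaptors. Of 21 other YAP/TAZ targets 14 were lower and 7 higher in the mean (median -0.12). Of these Ccn2, a matricellular protein, was called in the mean (-1.41, SE 0.31, edgeR adjusted p = 0.0735), and the log2 fold change of Ccn1 was -1.75 (SE 0.44, edgeR adjusted p = 0.170). Beside them Amotl2 had -1.98 (SE 0.17). The 10 endothelial markers were also lower in the mean (median -0.23), as was the median gene of at least 10 CPM (-0.06). With the receptor-gene density as a covariate 8 more genes of these lists were called, all lower in YT-iKO, namely Lats2, Ptpn14, Magi2, Plekhg5, Nedd4, Vcl, Ccn1 and Crim1 (percent of genes called 2.37). In the same fit 2 of the 10 endothelial and 2 of the 6 astrocyte markers were also called lower and 1 of the 5 neuron markers higher, and their part in these differences was not tested.

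With edgeR, factors from all tested genes and no covariate, calls after MCAo in these lists were found in the mean of both genotypes and not within a genotype. That mean called 1.23% of all genes tested. Among the partners of the LIM proteins Snai1, a transcriptional repressor that Ajuba proteins bind, rose by 1.81 (log2, SE 0.34, edgeR adjusted p = 0.00684), and Hif1a, the hypoxia factor whose turnover Limd1 takes part in, rose by 0.79 (SE 0.19, edgeR adjusted p = 0.0513), 2 of 17 in all. Fblim1 of the zyxin family rose by 1.05 (SE 0.20, edgeR adjusted p = 0.00837), 1 of 4. Tead3 was called among the 21 Hippo and TEAD genes (0.72, SE 0.19, edgeR adjusted p = 0.0989), and 0 of 22 angiomotin partners were. Of the 21 other targets 3 rose, namely Axl (0.76, SE 0.18, edgeR adjusted p = 0.0496), Myof (0.89, SE 0.22, edgeR adjusted p = 0.0566) and Nt5e (0.71, SE 0.19, edgeR adjusted p = 0.0976), and Tgfb2 fell by 0.80 (SE 0.19, edgeR adjusted p = 0.0437). The median of these targets was 0.29, against 0.03 over all genes tested and -0.20 for the 3 angiomotins. In the same comparison the median was 0.77 for the 5 fibroblast markers, with 2 called higher, and 0.51 for the 8 pericyte markers, with 7 higher and 0 called, while 1 of the 6 astrocyte markers was called higher and 1 of the 5 neuron markers lower, and their part in the differences of these lists was not tested. With the receptor-gene density as a covariate, and with factors from abundant genes, calls were also made within genotypes. With the covariate the counts were as follows. In CTRL 3 of the 21 targets rose and 1 fell, and 2 of the 17 LIM partners, 1 of the 21 Hippo and TEAD genes, 1 of the 22 angiomotin partners and 1 of the 4 zyxin family genes rose (percent of genes called 2.03). In YT-iKO 4 targets rose and 1 fell, 2 LIM partners rose and 1 fell, and 1 zyxin family gene rose (percent of genes called 1.52). Of the markers, 2 fibroblast genes were called higher in either genotype, and in CTRL 1 pericyte and 1 astrocyte gene higher and 1 neuron gene lower.

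The genes whose levels followed each member most closely over the 16 libraries were named by Pearson's r of log2(CPM + 1), which describes libraries that share their groups, depth and scaling. For Amotl2 they were Rflnb (r = 0.97), Yap1 (0.96) and Ddah1 (0.95). For Ajuba they were Slc38a5 (0.93), Cp (0.91) and Edn1 (0.91), and for Wtip Plscr2 (0.96), Clec14a (0.95) and Meox1 (0.95). For Amot they were Dpysl2 (0.97), Dusp3 (0.96) and Tshz1 (0.96), for Amotl1 Ccdc47 (0.99), Ppm1a (0.99) and Snrnp200 (0.98), and for Limd1 Rbms2 (0.97), Rapgef6 (0.96) and Map4k5 (0.95). On the second scale r with the same genes was 0.94 to 0.97 for Amotl2, 0.86 to 0.90 for Ajuba, 0.92 to 0.93 for Wtip, 0.86 to 0.89 for Amot, 0.68 to 0.85 for Amotl1 and 0.73 to 0.80 for Limd1. Over deviations from the group means, taken on the main scale only, it was 0.62 to 0.84 for Amotl2 (0.70 with Yap1), 0.69 to 0.80 for Ajuba and at least 0.88 for the other 4 members. All genes of a library share its scaling factor, which enters these deviations. The levels of Amotl1 and Limd1 followed the receptor-gene density over the 16 libraries on the main scale (r = -0.86 and -0.83), and less on the second (-0.38 and -0.25). For Amotl2 this r was -0.14 and 0.03. Among the 15 pairs of members, Ajuba with Wtip (0.83 and, on the second scale, 0.78), Amotl2 with Wtip (0.77 and 0.77) and Amotl2 with Ajuba (0.76 and 0.72) kept their r on both scales, while Amotl1 with Limd1 went from 0.85 to -0.16. Amotl2, Ajuba and Wtip are the members with the most negative log2 fold changes between genotypes, so these r also hold that difference. Over deviations from the group means the same pairs had 0.64, 0.76 and 0.70, and Amotl1 with Wtip had 0.92, the highest of the 15.

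Within a genotype, no relation of Amotl2 or Ajuba with Yap1 or Wwtr1 passed at an adjusted p of 0.05 on both scales. The 8 libraries of a genotype hold both sham and MCAo, and the permutations did not keep the operations apart. Each r and p below therefore also holds any difference between operations. On the second scale the MCAo difference in YT-iKO was 0.25 for Wwtr1 and -0.24 for Amotl2 (log2(CPM + 1)), with overlapping groups. Of 8 relations over 8 libraries each, the strongest was Amotl2 with Yap1 in CTRL on the main scale (r = 0.84, rho = 0.71, exact permutation p = 0.00761 and 0.0576, adjusted over 8 relations 0.0609 and 0.342). Without CTRL MCAo replicates 2 and 3, the libraries farthest from the median of Yap1, r was 0.05, so the relation rests on those libraries. On the second scale its r was -0.06, and 7 of the 8 relations had a negative r. Of these, Amotl2 with Wwtr1 in YT-iKO had r = -0.84 (rho = -0.71, exact permutation p = 0.0113 and 0.0576, adjusted over 8 relations 0.0453 and 0.230) and r = -0.60 without YT-iKO MCAo replicates 2 and 4. Ajuba with Yap1 in CTRL had r = -0.76 (rho = -0.81, exact permutation p = 0.00992 and 0.0218, adjusted over 8 relations 0.0453 and 0.174) and r = -0.65 without CTRL MCAo replicates 2 and 4. On the main scale r of these pairs was 0.31 and 0.39, so their sign depends on the scaling.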

How the data were processed

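Per the labels and the study's methods, RNA from sorted bECs was amplified with SMART-Seq and aligned with STAR 2.7.8a to GRCm38 with GENCODE M12. The counts were treated here as holding no unique molecular identifiers and no strand. The authors deposited raw counts per gene, and the counting program is not given in the sources used here. Members and gene lists were chosen with earlier results of these data known.

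Counts of 31085 genes kept by filterByExpr (minimum count 10, minimum total 15) were fitted with edgeR 4.0.16 (R 4.3.3; quasi-likelihood test, TMM factors, 1 model of 4 groups), with Benjamini-Hochberg adjustment over all tested genes and a threshold of 0.1. The scripts were tested on simulated data. Single values and within-library ratios were compared by two-sided exact permutation tests on the log2 scale (log2(CPM + 1) for levels), over 70 assignments for a pair of groups and 4900 for a mean over both operations or genotypes. Alternatives used DESeq2 1.42.0, limma 3.58.1 (voom with sample quality weights), other scaling factors, filters and covariates. The named pathway genes are those called in a comparison, Ccn1 and those called with the density covariate being named after their values were seen, and the likest genes are the 3 with the highest r among genes of at least 10 CPM. Replicates are pools of mice, so p-values measure the spread between pools. Exon lengths and positions came from GENCODE M21 (36841 of 37003 genes matched).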

Additional observations from a re-analysis of the deposited data

How the results depend on the processing

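The call of Amotl2 in the comparisons of genotypes held under every alternative listed and without any single library (log2 fold change -2.08 to -1.94 after sham, -2.23 to -1.82 after MCAo and -2.12 to -1.92 in the mean with 1 library left out). The number of members called changed as follows. After sham it went from 1 to 2, with Ajuba, under DESeq2, limma-voom, the fit of only the groups compared, the replicate block and the receptor-gene density (0.42%, 0.46%, 0.506%, 0.129% and 0.447% of all genes called, against 0.0965%). After MCAo it went from 1 to 2 under limma-voom (Ajuba, 0.827% of genes) and the density (Wtip, 0.75%), against 0.0708%. In the mean of genotypes it went from 1 to 3, with Ajuba and Wtip, under DESeq2, factors from abundant genes, the filter at a CPM above 1, limma-voom and the density (1.33%, 1.78%, 0.627%, 2.4% and 2.37% of genes, against 0.28%), and to 2, with Ajuba, under RLE factors, no filter and the replicate block (0.396%, 0.341% and 0.479%). With 1 library left out this count ran from 1 to 3, with the libraries concerned named in the results on Ajuba and Wtip. Over these fits the genes called ran from 46 of 32901 to 171 of 32939. The highest total was without YT-iKO MCAo replicate 4, the fit with 3 members called. For MCAo the count went from 0 to 3 under limma-voom in CTRL, in YT-iKO and in their mean (Amot, Amotl1 and Amotl2; percent of genes called 24.2, 18.1 and 54.7), and from 0 to 1 (Amot) in the mean under abundant factors and the density (5.14% and 5.95%). The causes were not tested.

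Small differences changed sign. Under abundant factors Limd1 was 0.0215 between genotypes after sham and Amotl1 0.0131 in the mean of genotypes (0.0178 and 0.0108 as differences of log2(CPM + 1)), and the interactions of Amotl2 and Limd1 were -0.0790 and -0.0861. Under limma-voom Amotl1 was -0.14 between genotypes after MCAo and -0.39 after MCAo in YT-iKO, Limd1 was -0.12, -0.22 and -0.17 and Wtip -0.0146, -0.16 and -0.0892 after MCAo in CTRL, YT-iKO and the mean, and the interactions of Amotl1, Amotl2 and Limd1 were -0.0477, -0.15 and -0.10. With the density Amotl1 was -0.0681 between genotypes after MCAo and -0.0670 after MCAo in YT-iKO, Limd1 -0.0374 after MCAo in YT-iKO, and the interactions of Amot, Amotl2 and Limd1 were -0.0051, -0.0553 and -0.15. Amotl1 was -0.0038 between genotypes after MCAo without a filter and -0.0021 after MCAo in YT-iKO when fitted on those groups, the Wtip interaction was 0.0101 with the replicate block, and the ratio of Ajuba to Wtip between genotypes after MCAo was -0.10 with the background subtracted. Under abundant factors r within CTRL was -0.0605 for Amotl2 with Yap1, -0.59 for Amotl2 with Wwtr1 and -0.76 for Ajuba with Yap1, and within YT-iKO -0.19, -0.84 and -0.56 for the same pairs and -0.0348 for Ajuba with Wwtr1.

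With 1 library left out, signs turned within these ranges of log2 fold change. Between genotypes after MCAo they were -0.22 to 0.0765 for Amot, -0.14 to 0.18 for Amotl1 and -0.26 to 0.0878 for Limd1, and for Amotl1 in the mean -0.15 to 0.0073. After MCAo they were -0.0291 to 0.25 for Ajuba and -0.0773 to 0.17 for Limd1 in CTRL, -0.12 to 0.21 for Amotl1 and -0.0722 to 0.28 for Limd1 in YT-iKO, and -0.12 to 0.0366 for Amotl1 and -0.0038 to 0.17 for Limd1 in the mean. Other uncalled values after MCAo kept their sign but moved by over 1.5 times, in YT-iKO from -0.45 to -0.041 for Amotl2, -0.41 to -0.11 for Amot, 0.069 to 0.34 for Wtip and 0.46 to 0.89 for Ajuba, and in CTRL from -0.23 to -0.047 for Amotl1, -0.31 to -0.13 for Amotl2 and 0.15 to 0.38 for Wtip. Between genotypes this held after sham for Amot (-0.34 to -0.052), Amotl1 (-0.22 to -0.038) and Limd1 (-0.20 to -0.045) and after MCAo for Ajuba (-0.85 to -0.42). In the mean of genotypes it held for Amot (-0.225 to -0.059) and Limd1 (-0.187 to -0.0188). For MCAo in the mean of both genotypes it held for Amotl2 (-0.34 to -0.14) and Wtip (0.16 to 0.31). Among the interactions it held for Amotl1 (0.013 to 0.35) and Ajuba (0.30 to 0.73). For the interaction the ranges in which signs turned were -0.0313 to 0.27 for Amot, -0.22 to 0.20 for Amotl2, -0.14 to 0.21 for Limd1 and -0.20 to 0.0856 for Wtip. Deviations of same-numbered libraries had a median correlation of 0.259 (24 pairs), against -0.128 for the 72 other pairs, and 17 of the 24 exceeded 0.1. The labels name no shared litter or day. Under a rule that every pair exceed 0.1 the numbers were not read as pairs, but this rule is no test of a shared source, which was not tested. The main p-values take no account of the replicate number. With the block Ajuba was called after sham (edgeR adjusted p = 0.0951) and in the mean of genotypes (0.0252). The replicate block moved the genes called from 30 to 40 after sham, 22 to 34 after MCAo and 87 to 149 in the mean of genotypes, and from 67 to 119, 99 to 132 and 383 to 448 in the comparisons of MCAo. Ajuba, with 39 to 169 counts a library, has the least depth of the 6 genes. Counting intervals were not computed, and reads of amplified RNA are not independent molecules.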
